A study of Mus musculus with 4 samples.

Results

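Cotl1 and 9 other genes of actin and its regulators (Cfl1, Cfl2, Dstn, Pfn1, Tmsb4x, Tmsb10, Actb, Actg1 and Cap1) were followed in purified brain endothelial cells of mice at postnatal day 0 (P0). They are 10 of the 21578 genes in the deposited count tables, found by symbol, and all 10 were among the 15909 genes that passed the filter on low counts. The libraries came from C57BL/6 mice of 2 genotypes, with 2 libraries each. Both genotypes carry the floxed Pd1 allele (Pd1fl/fl), and in Pd1cKO-Tie2 mice Tie2-Cre in addition removes Pd1, the gene of the checkpoint receptor PD-1 (symbol Pdcd1). The Tie2 promoter drives Cre in endothelial cells and is known to be active in blood cell lineages as well. The cells were sorted from P0 cortex by antibodies against CD31 and CD45. The labels do not say whether a library held 1 animal or several, so the p-values measure the spread between these libraries only.

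Actin is kept in a cycle between single subunits (G-actin) and filaments (F-actin), and endothelial cells use it to sprout, to hold their junctions and to resist flow. Profilin and the thymosin beta peptides bind the single subunits. Cofilins and destrin sever and disassemble filaments, and cyclase-associated protein helps to recycle the subunits. Coactosin-like protein, the product of Cotl1, belongs to the same ADF-homology family as the cofilins, binds filaments and is also known as a partner of 5-lipoxygenase. Cotl1 was selected on the contrast between these libraries, so its values are a description and carry no test. The other 9 genes were chosen by abundance and family, with earlier results of these data known. They are not the most abundant actin regulators as a set.

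Cotl1 was the gene among the 10 that stood higher in Pd1cKO-Tie2 endothelial cells, at 2.14 times its Pd1fl/fl level. The other 9 did not pass the criterion of the study's methods, namely a p of 0.05 or less together with a 2-fold or larger difference. Of these 9, the largest by size were Cfl2 at 1.35 times and Actb at 0.819 times the Pd1fl/fl level. Across all tested genes, 1.41% passed the criterion upward and 2.61% downward in edgeR's quasi-likelihood test. After Benjamini-Hochberg adjustment 0 genes (0.0%) had an adjusted p under 0.05 in edgeR, while 1016 genes (6.39%) had an unadjusted p under 0.05. DESeq2 gave 114 genes (0.672% of those with an adjusted value) with an adjusted p under 0.05.

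Total counts were 14359990 and 13715837 in the first and second Pd1fl/fl library, and 24147311 and 14157027 in the first and second Pd1cKO-Tie2 library. Together the 10 genes made up 0.914% to 1.003% of all counts, depending on the library. Pdcd1, the deleted gene, had 32 counts in the first Pd1fl/fl library and 0 in each of the other 3. As the second Pd1fl/fl library had 0 like both Pd1cKO-Tie2 libraries, the deletion could not be checked from these counts. Levels are given as CPM, counts scaled to a fixed library total, after TMM scaling, and a fold change is Pd1cKO-Tie2 over Pd1fl/fl.

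The markers of the sorted cell type and of its neighbours were not level between the genotypes. All 11 endothelial markers, led by Cldn5, Esam and Kdr, were higher in both Pd1cKO-Tie2 libraries than in both Pd1fl/fl libraries. For comparison, 17.7% of all tested genes lay above in this way and 18.1% lay below. The summed endothelial level was 10607 and 9640 CPM in the Pd1fl/fl and 12561 and 13416 CPM in the Pd1cKO-Tie2 libraries. Over the 11 markers the median log2 fold change was 0.36, and 0 of them passed the criterion.

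The summed level of 10 microglia and macrophage markers, led by Csf1r, C1qa and C1qb, was 1982 and 2416 CPM in Pd1fl/fl against 754 and 1684 CPM in Pd1cKO-Tie2. None was at 0 in any library, and 8 of the 10 were lower in both Pd1cKO-Tie2 libraries, with a median log2 fold change of -0.90 and 1 that passed the criterion. The list of other leukocytes and neutrophils ran from 504 to 1644 CPM, lower in both Pd1cKO-Tie2 libraries, and its granule genes Ltf, Camp and Elane were at 0 in 3 libraries but not in the first Pd1fl/fl library. Its 6 tested genes had a median of -1.35, and 3 of them were lower in both Pd1cKO-Tie2 libraries. The 2 that passed were not among these 3, as their genotypes overlapped and only the first Pd1fl/fl library was high. For Ngp, 1 of the 2, it had 5950 counts, against 0 in the second Pd1fl/fl and 28 and 0 in the Pd1cKO-Tie2 libraries. Radial glia and astrocyte markers summed to 829 and 866 CPM in Pd1fl/fl against 550 and 423 CPM in Pd1cKO-Tie2, with a median of -0.83 over 8 tested genes, of which 2 passed. Pericyte and smooth muscle markers summed to between 3612 and 5598 CPM, neuronal ones to between 858 and 1217, oligodendrocyte lineage ones to between 78.5 and 164, and erythroid ones to between 548 and 1063 CPM, with overlapping genotypes and 0 genes past the criterion in these 4 lists. The part of these markers in the levels below was not tested, and in sorted bulk cells fewer cells of a type and less RNA per cell cannot be told apart.

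**Figure D1:**
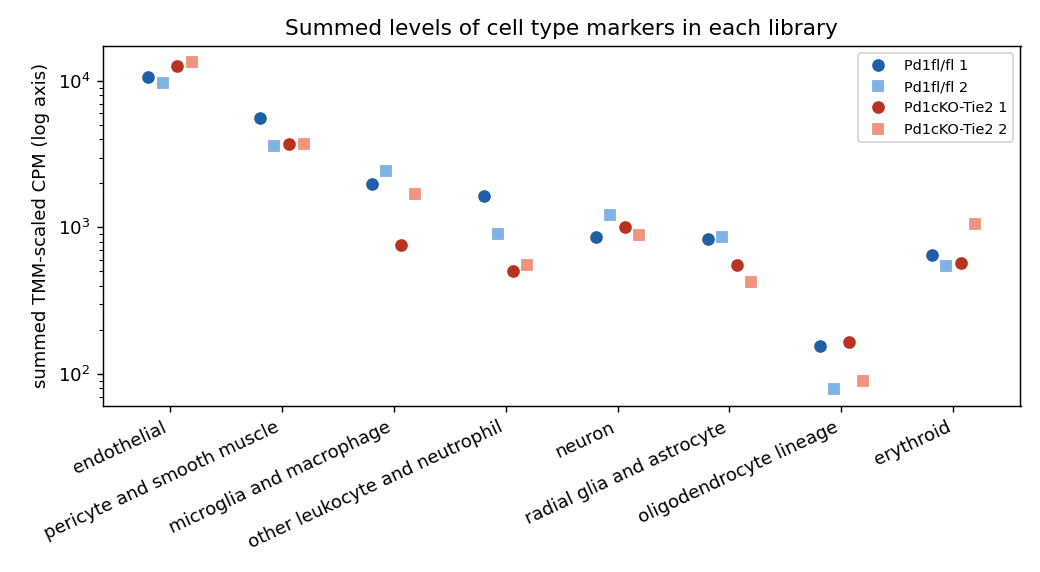
Summed TMM-scaled CPM of each list of cell type markers (log axis) in the 4 libraries, with 1 point per library. The endothelial sum lies higher and the microglia, leukocyte and radial glia sums lie lower in both Pd1cKO-Tie2 libraries.

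Several of these genes have close copies, and the reads of close copies can be split or lost in counting. The coding sequences of 2 pairs of relatives are shown to make visible how many bases tell the members of a pair apart. They are from the principal transcripts of GENCODE M21 on GRCm38, written 5′ to 3′ without the stop codon, and capitals mark the bases that differ between the members of a pair. The whole coding sequences of the thymosins, of 132 bases each, are:
Tmsb4x: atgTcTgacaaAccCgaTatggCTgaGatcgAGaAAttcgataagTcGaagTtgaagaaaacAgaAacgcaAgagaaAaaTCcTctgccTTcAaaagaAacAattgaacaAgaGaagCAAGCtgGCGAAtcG
Tmsb10: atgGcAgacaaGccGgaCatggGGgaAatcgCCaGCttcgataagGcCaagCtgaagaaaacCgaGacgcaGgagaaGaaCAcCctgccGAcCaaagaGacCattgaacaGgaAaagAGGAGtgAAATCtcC
The pair differs at 40 of these 132 bases, and its longest identical stretch is 10 bases.
The first 120 coding bases of the cytoplasmic actins are:
Actb: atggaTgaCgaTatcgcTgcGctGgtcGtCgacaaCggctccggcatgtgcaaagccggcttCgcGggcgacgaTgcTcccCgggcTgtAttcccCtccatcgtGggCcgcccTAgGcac
Actg1: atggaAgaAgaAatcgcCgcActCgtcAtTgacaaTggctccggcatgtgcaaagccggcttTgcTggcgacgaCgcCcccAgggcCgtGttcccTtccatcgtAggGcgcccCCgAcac
Here 22 of 120 bases differ. Over their 1125 coding bases the actins were 88.6% identical, with an identical stretch of 62 bases, against 69.7% for the thymosins, 71.5% for Cfl1 and Cfl2 and 68.3% for Cfl1 and Dstn.

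The share of a gene's 50-base stretches that also occur in another gene's transcripts or their reverse complement measures how far its reads could be mistaken. It was 0 for Cotl1, Dstn, Pfn1 and Tmsb4x, 1.01% for Cfl2 and 2.23% for Cap1. It was 9.12% for Actb, over 18 genes of which 14 are pseudogenes, and most of it (6.14%) was shared with Lrrc58, which held 6278 to 9162 counts in a library. Cfl1 stood at 18.3%, most of it with Snx32, which overlaps it on the other strand by 468 bases. Tmsb10 stood at 27.0% and Actg1 at 37.4%, mostly with Gm9844, which is annotated as a retrogene, and the processed pseudogene Gm12715. These copies held at most 184 and 61 counts in a library. How reads that fit several places were treated, and whether strand was used, is not given in the sources used here, so the levels of Actg1, Tmsb10, Cfl1 and Actb carry this uncertainty, and no such stretch was found for Cotl1.

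The order of the 10 genes was taken per kilobase of exon, so that genes of different length can be set side by side. Cfl1 led with a mean of 1709 CPM per kilobase over the 4 libraries, followed by Tmsb4x with 1365. Then came Actb with 492, Tmsb10 with 412 and Dstn with 204 CPM per kilobase. Cotl1 had 94.6, Actg1 74.7, Pfn1 68.3, Cap1 35.2 and Cfl2 29.9 CPM per kilobase. Some neighbours in this order were not apart beyond their spread. Cfl1 ran from 1557 to 1793 and Tmsb4x from 1014 to 1747 CPM per kilobase, Actb from 420 to 547 and Tmsb10 from 378 to 500. The place of Cotl1 differed by genotype, the contrast it was chosen on. In Pd1fl/fl it had 63.6 and 56.8 CPM per kilobase, below Actg1 (74.2 and 67.7) and Pfn1 (68.2 and 68.0). In Pd1cKO-Tie2 it had 144 and 114, above Actg1 (82.7 and 74.2) and Pfn1 (52.4 and 84.7). Cap1, from 15.7 to 55.7, overlaps Cfl2, from 19.0 to 36.7 CPM per kilobase. With the longest transcript as the length, Tmsb4x (2166) stood above Cfl1 (2065), Tmsb10 (762) above Actb (687) and Actg1 (102) above Cotl1. By CPM alone, Cfl1 was the 12th, Tmsb4x the 33rd and Actb the 62nd most abundant of all tested genes, while Cotl1 was the 1343rd. Cfl2, with a mean of 83.2 CPM in Pd1fl/fl, was the 2207th. Some actin regulators outside the 10 stood far higher, such as Arpc5 with a mean of 1333 CPM in Pd1fl/fl.

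**Figure D2:**
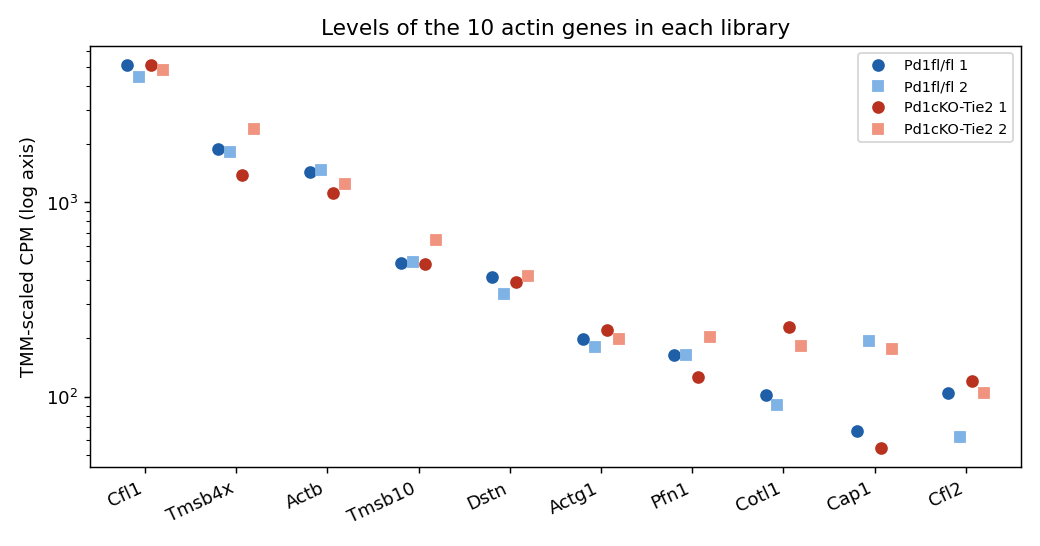
TMM-scaled CPM of the 10 genes (log axis, not divided by length) in each library, with circles for the libraries numbered 1 and squares for those numbered 2. The genotypes are apart for Cotl1 and Actb, and Cap1 separates by library number instead.

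The ADF-homology family held the gene that was chosen for its change and 3 that did not pass the criterion. Cotl1 (ENSMUSG00000031827, chr8:119809222-119840544, minus strand, GRCm38) had 101.6 and 90.7 CPM in the Pd1fl/fl against 230 and 182 CPM in the Pd1cKO-Tie2 libraries. In counts this was 1464 and 1288 against 5486 and 2482. The genotypes do not overlap, and the first Pd1cKO-Tie2 library is the highest. The mean was 96.1 ± 7.65 CPM (SD, n = 2) in Pd1fl/fl against 206 ± 33.8 CPM (SD, n = 2) in Pd1cKO-Tie2. The fitted log2 fold change was 1.10 (SE 0.20, 95% interval 0.61 to 1.58), which lies just past the 2-fold line. As Cotl1 was chosen on this contrast, the interval is no test against 0, and the size can be too large. Without the first Pd1cKO-Tie2 library the log2 fold change was 0.93, below that line. Leaving out each library in turn gave values from 0.93 to 1.26, and the other tools, scalings and filters gave 1.04 to 1.12.

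Cfl1 (ENSMUSG00000056201, chr19:5490455-5495201, plus strand), the non-muscle cofilin, had 5089 and 4429 CPM in Pd1fl/fl against 5100 and 4827 CPM in Pd1cKO-Tie2. The genotypes overlap, and the first libraries of either genotype lie close together. Its log2 fold change was 0.06 (SE 0.10, 95% interval -0.19 to 0.31, adjusted p = 1.00, edgeR), so a change of 2-fold in either direction lies outside the interval. Dstn (ENSMUSG00000015932, chr2:143915320-143943324, plus strand), which encodes destrin or ADF, had 413 and 337 CPM in Pd1fl/fl against 391 and 419 CPM in Pd1cKO-Tie2. These values overlap too, with a log2 fold change of 0.11 (SE 0.16, 95% interval -0.28 to 0.50).

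Cfl2 (ENSMUSG00000062929, chr12:54858809-54862877, minus strand), the muscle type of cofilin, had 104 and 62.1 CPM in Pd1fl/fl against 120 and 104 CPM in Pd1cKO-Tie2. The second Pd1fl/fl library stood low, and the first equalled the second Pd1cKO-Tie2 library. The log2 fold change was 0.43 (SE 0.29, 95% interval -0.30 to 1.16, adjusted p = 0.954, edgeR), and it was 0.11 without the second Pd1fl/fl and 0.86 without the first Pd1fl/fl library. Cfl1 had 48.7 and 71.4 counts for each count of Cfl2 in Pd1fl/fl against 42.6 and 46.3 in Pd1cKO-Tie2. For each count of Dstn there were 12.3 and 13.2 counts of Cfl1 in Pd1fl/fl against 13.0 and 11.5 in Pd1cKO-Tie2, a ratio whose genotypes overlap.

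The cytoplasmic actins stood on different sides of their Pd1fl/fl levels. Actb (ENSMUSG00000029580, chr5:142903115-142906754, minus strand), the gene of beta-actin, had 1435 and 1467 CPM in Pd1fl/fl against 1125 and 1251 CPM in Pd1cKO-Tie2. Both Pd1cKO-Tie2 libraries lay below both Pd1fl/fl libraries. The log2 fold change was -0.29 (SE 0.11, 95% interval -0.57 to -0.01), with an unadjusted p = 0.045 in edgeR's test and an adjusted p = 0.760 over all tested genes. The size was thus far under 2-fold, and the value did not pass the correction. DESeq2 gave an adjusted p = 0.471, and without 1 library at a time the log2 fold change lay between -0.36 and -0.20. Beta-actin protein served as the loading control of the study's western blots, in which protein and not RNA is measured.

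Actg1 (ENSMUSG00000062825, chr11:120345690-120348542, minus strand), the gene of cytoplasmic gamma-actin, had 197 and 180 CPM in Pd1fl/fl against 220 and 197 CPM in Pd1cKO-Tie2. The genotypes overlap at the shared value of 197 CPM, and the log2 fold change was 0.15 (SE 0.16, 95% interval -0.25 to 0.54). The ratio of Actb to Actg1 counts was 7.27 and 8.15 in Pd1fl/fl against 5.12 and 6.35 in Pd1cKO-Tie2. The ratio was thus lower in both Pd1cKO-Tie2 libraries, at 0.743 times its Pd1fl/fl mean. An exact permutation test of 2 against 2 libraries cannot give a two-sided p under 0.333, so no ratio here was tested. The muscle actin Acta2, which pericytes and smooth muscle cells can express, and Acta1 were at or below 0.775 CPM in every library and were not tested.

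**Figure D3:**
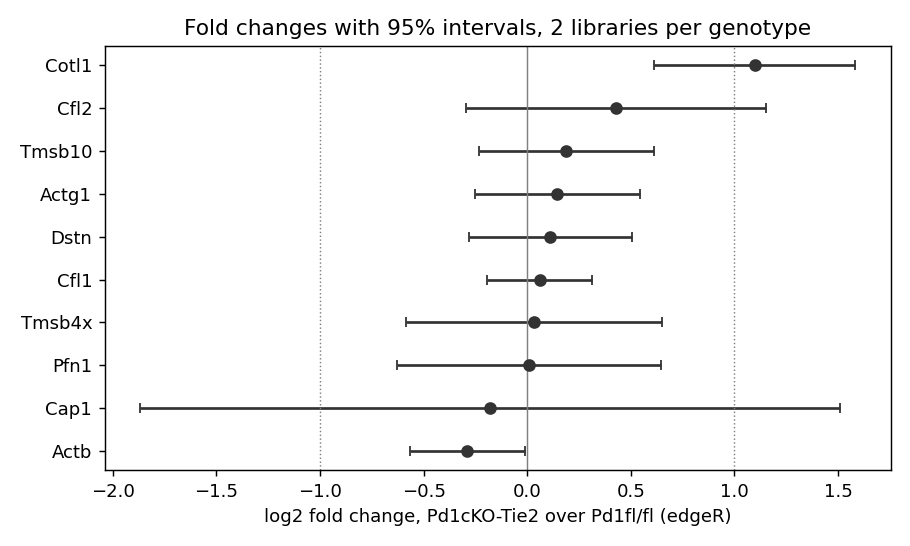
Log2 fold change (Pd1cKO-Tie2 over Pd1fl/fl, edgeR) of the 10 genes with 95% intervals, 2 libraries per genotype, and dotted lines at 2-fold. The interval of Actb ends just below 0, that of Cap1 runs from -1.87 to 1.51, and Cotl1, chosen on this contrast, lies at 1.10.

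The genes of proteins that hold single actin subunits differed more between the Pd1cKO-Tie2 libraries than between the genotype means. Tmsb4x (ENSMUSG00000049775, chrX:167207093-167209315, minus strand), the main G-actin-sequestering peptide, had 1879 and 1821 CPM in Pd1fl/fl against 1390 and 2396 CPM in Pd1cKO-Tie2. The Pd1cKO-Tie2 libraries lie on either side of the Pd1fl/fl pair. The mean was 1850 ± 40.7 CPM in Pd1fl/fl against 1893 ± 711 CPM in Pd1cKO-Tie2 (SD, n = 2 each), and the log2 fold change was 0.03 (SE 0.25, 95% interval -0.59 to 0.65).

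Pfn1 (ENSMUSG00000018293, chr11:70651850-70654644, minus strand), the gene of profilin, which hands subunits to growing filament ends, showed the same arrangement. It had 164 and 163 CPM in Pd1fl/fl against 126 and 204 CPM in Pd1cKO-Tie2. The log2 fold change was 0.01 (SE 0.26, 95% interval -0.63 to 0.64). Between Pfn1 and Tmsb4x the ratio hardly varied, with 8.72, 8.97, 9.06 and 8.51 counts of Pfn1 for 100 counts of Tmsb4x in the 4 libraries. Without the first Pd1cKO-Tie2 library the log2 fold changes were 0.33 for Pfn1 and 0.38 for Tmsb4x. Without the second they were -0.37 and -0.41, so 1 library decides the direction of either gene. The values also fell on the other side of 0 under library size scaling, at -0.057 and -0.034.

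Tmsb10 (ENSMUSG00000079523, chr6:72957347-72958748, minus strand), which encodes a close relative of the Tmsb4x peptide, had 489 and 494 CPM in Pd1fl/fl against 482 and 638 CPM in Pd1cKO-Tie2. The second Pd1cKO-Tie2 library stood above the other 3, which lie close together. The log2 fold change was 0.19 (SE 0.17, 95% interval -0.23 to 0.61), and -0.02 without the second Pd1cKO-Tie2 library. There were 3.84 and 3.69 counts of Tmsb4x for each count of Tmsb10 in Pd1fl/fl, against 2.88 and 3.76 in Pd1cKO-Tie2.

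The second Pd1cKO-Tie2 library was also above the first for other short transcripts. Among 4163 abundant genes (mean of at least 50 CPM), the 104 whose longest transcript is under 1000 bases had a median log2 difference of 0.29 between the second and the first Pd1cKO-Tie2 library. It lay between -0.02 and 0.04 in the 4 classes of longer transcripts. The difference was 0.79 for Tmsb4x, 0.40 for Tmsb10 and 0.69 for Pfn1. The longest transcripts of Tmsb4x and Tmsb10 have 864 and 690 bases and fall in the shortest class, whereas that of Pfn1 has 1997 bases. The part of transcript length in these levels was not tested.

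Cap1 (ENSMUSG00000028656, chr4:122859047-122886056, minus strand), which encodes cyclase-associated protein, had 66.4 and 194 CPM in Pd1fl/fl against 54.7 and 176 CPM in Pd1cKO-Tie2. It was low in the libraries numbered 1 and high in those numbered 2, in either genotype, by a log2 difference of 1.55 and 1.69. Of 4160 abundant genes above 0 in every library, 6 were at least 2-fold higher in the second than in the first library of both genotypes, and 2 were at least 2-fold lower. Across these genes the differences within the genotypes were correlated by Pearson's r = 0.061, genes not being independent replicates. The labels do not say that a number marks a shared batch or animal. The log2 fold change of Cap1 between genotypes was -0.18 (SE 0.68, 95% interval -1.87 to 1.51), and its sign turned when a library was left out, to 0.80 without the second Pd1fl/fl and 0.45 without the first Pd1cKO-Tie2 library.

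Ratios within a library do not depend on how libraries are scaled. For 100 counts of Actb there were 7.08 and 6.19 counts of Cotl1 in Pd1fl/fl against 20.4 and 14.5 in Pd1cKO-Tie2. For 100 counts of Cfl1 there were 2.00 and 2.05 counts of Cotl1 in Pd1fl/fl against 4.50 and 3.77 in Pd1cKO-Tie2. Cotl1 was higher in both Pd1cKO-Tie2 libraries relative to 8 of the other 9 genes, all but Cap1. The fold between the genotype means of these ratios ran from 1.503 against Cfl2 to 2.63 against Actb. Since Cotl1 was chosen for being higher in these libraries, this describes the size of the difference and not its stability.

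**Figure D4:**
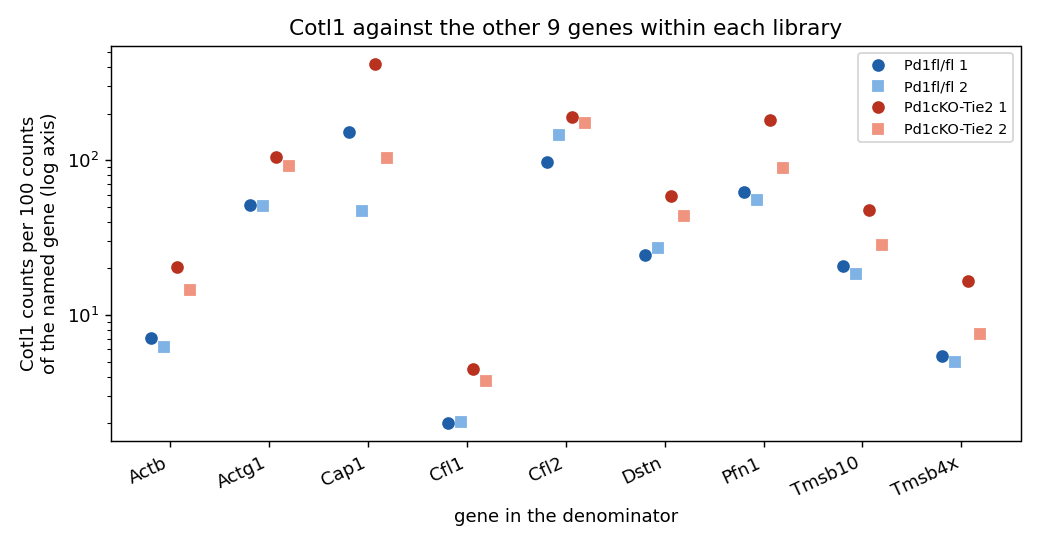
Counts of Cotl1 for 100 counts of each of the other 9 genes (log axis), with 1 point per library. The Pd1cKO-Tie2 points lie above the Pd1fl/fl points for every gene in the denominator but Cap1, where the range of the libraries is widest.

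As endothelial markers were higher in the Pd1cKO-Tie2 libraries, each gene was also expressed as a percentage of the summed endothelial level of its library, a comparison chosen after seeing the data. Cotl1 stood at 0.957% and 0.941% in Pd1fl/fl against 1.83% and 1.36% in Pd1cKO-Tie2, which is 1.68 times higher. Actb stood at 13.5% and 15.2% in Pd1fl/fl against 8.96% and 9.33% in Pd1cKO-Tie2, or 0.636 times. On this scale Cotl1 was the 1 gene of the 10 with both Pd1cKO-Tie2 libraries above both Pd1fl/fl libraries. Cfl1, Dstn, Pfn1, Actb and Actg1, 5 of the 10, had both below, and the other 4 overlapped. The endothelial sum that serves as divisor was higher in both Pd1cKO-Tie2 libraries, which moves every gene downward there. The share of all tested genes on either side was not worked out on this scale, so these counts are no result about the 10 genes. The choice of scale thus turns the direction of Cfl1, Dstn, Pfn1, Tmsb4x, Tmsb10 and Actg1, for which the TMM-scaled log2 fold changes were all between 0.01 and 0.19.

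Among 9457 tested genes with a mean of at least 10 CPM, those whose profile over the 4 libraries was nearest to that of Cotl1 were Ift172, Tjap1, Adcy9, Pex6 and Xrcc6. Nearness was the Euclidean distance between centred log2 CPM values, and it was 0.106 for Ift172, the gene of an intraflagellar transport protein, and 0.189 for Xrcc6, the gene of the DNA repair protein Ku70. Ift172 had 15.4 and 15.1 CPM in Pd1fl/fl against 37.0 and 30.0 CPM in Pd1cKO-Tie2. Tjap1, the gene of a tight junction associated protein, had 23.9 and 20.8 CPM in Pd1fl/fl against 49.0 and 43.7 CPM in Pd1cKO-Tie2, at a distance of 0.131. In all, 18 genes lay within a distance of 0.25, and none of the other 9 actin genes did. That follows from the fold changes above, because the distance takes in the difference between genotypes. Cotl1 was chosen at a log2 fold change of 1.10, and the highest of the other 9 was Cfl2 at 0.43. The nearest of the 9 was Cfl2 at 0.749 (rank 697) and the farthest Cap1 at 2.279 (rank 9062).

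Beyond the 10 genes, 103 of 109 listed actin regulators were in the tables and 99 were tested. By the criterion 1 was higher and 3 were lower in Pd1cKO-Tie2, beside 1.41% and 2.61% of all tested genes. In edgeR 0 of the 99 had an adjusted p under 0.05. An unadjusted p under 0.05 was found for 9, beside 6.39% of all tested genes. The median log2 fold change of the 99 genes was 0.02, against 0.00 for all tested genes. Both Pd1cKO-Tie2 libraries lay above for 18.2% and below for 21.2% of them, near the shares of all genes given above. The 4 were Tmod1, which was higher, and Nckap1l, Daam2 and Scin, which were lower. Tmod1 and Scin passed the filter on low counts only through the genotype where they were high, so their calls carry no test.

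**Figure D5:**
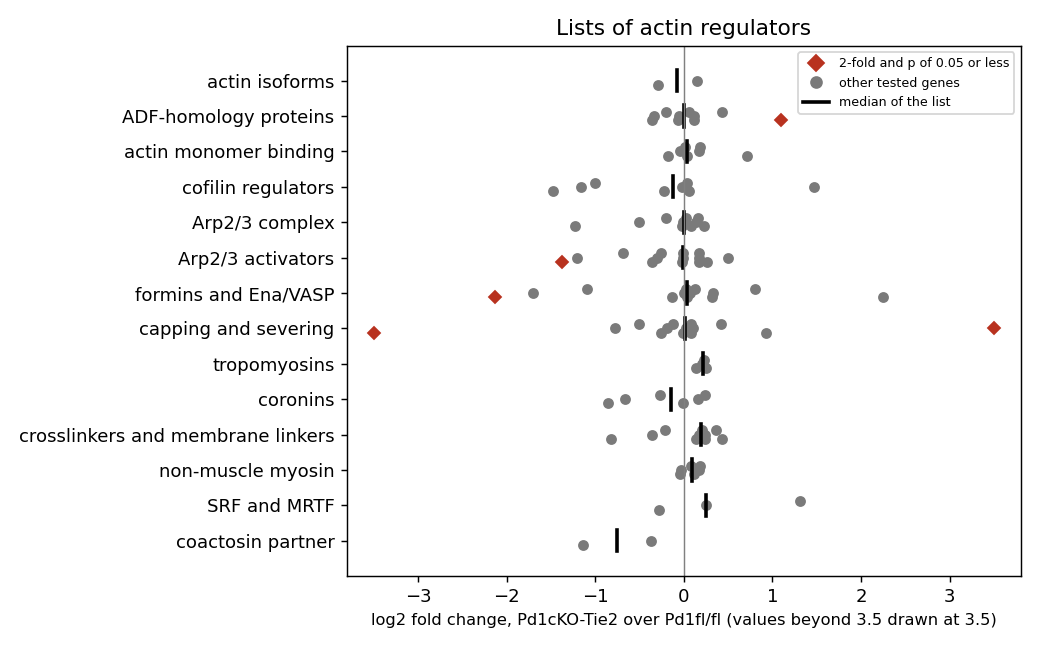
Log2 fold change of each tested gene in the lists of actin regulators, the 10 genes included, with diamonds for genes that passed the criterion and a bar at the median of each list. Most genes lie near 0, and the diamonds are Cotl1, Nckap1l, Daam2, Scin and Tmod1, the last pair drawn at the edges of the axis.

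Among the ADF-homology proteins 1 of 10 passed the criterion, Cotl1 itself, which was chosen on it, and the median log2 fold change was 0.00. The lowest were Twf2, a twinfilin, at -0.36 and Dbnl, a drebrin-like protein, at -0.34, with adjusted p-values of 1.00 and 0.925 in edgeR. Of 7 tested monomer-binding genes 0 passed. Pfn4, at 0 to 4.39 CPM, had the highest log2 fold change with 0.71 (SE 2.10), and Pfn2, the profilin of the nervous system, stood at -0.04. Of 8 tested regulators of cofilin 0 passed, and the median was -0.12. The kinase and phosphatase genes at its ends, Tesk2 at 1.47, Tesk1 at -1.48 and Ssh3 at -1.16, were all at or below 5.13 CPM. Wdr1, which helps cofilin to take filaments apart, had 303 and 251 CPM in Pd1fl/fl against 266 and 309 CPM in Pd1cKO-Tie2.

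The Arp2/3 complex nucleates branched filaments. Of its 10 subunit genes 0 passed the criterion, and their median log2 fold change was 0.01. Actr2 had 329 and 347 CPM in Pd1fl/fl against 207 and 270 CPM in Pd1cKO-Tie2, a log2 fold change of -0.50 (SE 0.18, adjusted p = 0.753, edgeR). Actr3b was at -1.23, while Arpc5l at 0.22 and Arpc1a at 0.17 were the highest. Of 14 activators of the complex 1 passed. Nckap1l, the subunit of the WAVE regulatory complex that blood cells use, fell from 55.9 and 47.6 CPM to 18.6 and 21.3 CPM, a log2 fold change of -1.37 (SE 0.28, adjusted p = 0.735, edgeR). The summed microglia and leukocyte markers were lower in the same libraries, although the sort used CD45, and their part in this level was not tested. Was, which is likewise known from blood cells, stood at -1.20, while Abi1, which had 156 and 189 CPM in Pd1fl/fl against 236 and 252 CPM in Pd1cKO-Tie2, had the highest value at 0.50.

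Of 13 formins and Ena/VASP genes 1 passed. Daam2, a formin tied to Wnt signalling, fell from 16.3 and 14.7 CPM to 3.26 and 3.81 CPM, a log2 fold change of -2.13 (SE 0.51, adjusted p = 0.735, edgeR). Diaph3 was at -1.71, with 20.0 CPM in the first Pd1fl/fl library and 3.22 to 3.89 CPM in the other 3. Fhod1 at 2.25 (SE 1.46) and Fmnl2 at 0.80 were the highest of the list. The level of Fhod1 was low, with 0.139 and 1.34 CPM in Pd1fl/fl against 4.14 and 2.93 CPM in Pd1cKO-Tie2.

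Of 14 capping and severing genes 2 passed, each with a genotype at 0. Both passed the filter on low counts only through the genotype where they were high, so their calls are a description. Scin, the gene of the severing protein adseverin, had 57 and 102 counts (3.95 and 7.19 CPM) in Pd1fl/fl and 0 in both Pd1cKO-Tie2 libraries. Its Pd1fl/fl mean was 32.3 times a floor of 3 counts per library (0.173 CPM). Tmod1, the gene of a pointed-end capper known from red blood cells, had 0 counts in both Pd1fl/fl libraries. It had 98 and 23 counts (4.10 and 1.68 CPM) in the Pd1cKO-Tie2 libraries. Their mean was 13.8 times the floor of 3 counts (0.210 CPM). These ratios use the mean of a genotype, and the lower library of each pair stood nearer to the floor. Tmod4, a relative of Tmod1 at or below 1.59 CPM, at 0.93 and Avil, the gene of the villin relative advillin, at -0.77 were next at the ends of the list. Capza1, Capza2 and Capzb, the subunits of the main capping protein, were named after their values were seen. Capzb had 585 and 582 CPM in Pd1fl/fl against 619 and 619 CPM in Pd1cKO-Tie2. Capza1 had 323 and 296 CPM against 326 and 327 CPM. Capza2 had 723 and 950 CPM against 664 and 879 CPM, and differed more within the genotypes than between them.

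Of the tropomyosins, which coat filaments, 0 of 4 passed, and all 4 had a log2 fold change above 0, with 0.21 for Tpm1, 0.25 for Tpm2, 0.14 for Tpm3 and 0.23 for Tpm4. Their unadjusted p-values in edgeR ran from 0.189 to 0.627. Of 6 coronins 0 passed. Coro1a, the coronin of blood cells and itself among the leukocyte markers, had 268 and 348 CPM in Pd1fl/fl against 162 and 227 CPM in Pd1cKO-Tie2, a log2 fold change of -0.66 (SE 0.23, adjusted p = 0.738, edgeR). Coro2a at -0.86 and Coro7 at -0.27 were also below 0, Coro1b was at -0.01, and Coro1c at 0.17 and Coro2b at 0.24 were above.

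Of 10 crosslinkers and membrane linkers 0 passed. Ezrin (Ezr) had 92.4 and 95.9 CPM in Pd1fl/fl against 47.5 and 59.3 CPM in Pd1cKO-Tie2, a log2 fold change of -0.82 (SE 0.22, adjusted p = 0.735, edgeR). Radixin (Rdx), of the same family, had 191 and 188 CPM in Pd1fl/fl against 228 and 284 CPM in Pd1cKO-Tie2, a log2 fold change of 0.43 (SE 0.17, adjusted p = 0.770, edgeR). The groups of both genes do not overlap. Fscn1, the gene of fascin, which bundles filaments in filopodia, was at 0.36, and Lcp1, the plastin of blood cells, at -0.36. Of 6 tested non-muscle myosin genes 0 passed, with values between -0.05 for Myl12b and 0.18 for Myh10.

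Srf, the gene of the transcription factor that drives Actb and many actin genes when G-actin is scarce, had 8.25 and 21.8 CPM in Pd1fl/fl against 46.0 and 28.5 CPM in Pd1cKO-Tie2. The groups do not overlap, and the log2 fold change of 1.31 (SE 0.55, unadjusted p = 0.056, adjusted p = 0.806, edgeR) did not pass. Its coactivators stood at -0.28 for Mkl1 and 0.26 for Mkl2, and Abra was at or below 0.419 CPM and not tested. Alox5, the gene of 5-lipoxygenase, had 13.5 and 22.8 CPM in Pd1fl/fl against 7.45 and 20.7 CPM in Pd1cKO-Tie2, and Alox5ap had 3.54 and 6.55 against 2.09 and 2.49 CPM. Neither passed the criterion, with log2 fold changes of -0.37 and -1.14.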

How the data were processed

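RNA of P0 brain endothelial cells was profiled in 2 Pd1fl/fl and 2 Pd1cKO-Tie2 libraries. The authors deposited 4 tables, each with 1 library of either genotype, of whole-number counts of reads per gene. Beside them stand CPM values deposited by the authors (the count over the total of its library), from which only the totals were recovered here. The tables also hold the authors' own comparisons of each pair, which were not used. The submitters' processing notes name TopHat2 2.0.12, Bowtie2 2.2.3, HTSeq 0.6.0 and mm9, although the tables give GRCm38 positions, 90.0% of which are the same in GENCODE M21. Multi-mapping and strand settings are not given in the sources used here.

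The tables were joined to 21578 genes, and genes not listed for a library were taken as 0, so that no more than 0.0107% of any total was lost. Libraries are numbered by column, and the second Pd1cKO-Tie2 column matches no label's number and was used by its genotype alone. Counts were fitted with the quasi-likelihood test of edgeR 4.0.16 (R 4.3.3) after filterByExpr and TMM, with no covariate, over 15909 genes. The criterion was at least 2-fold with p of 0.05 or less, and adjusted p-values are Benjamini-Hochberg over all tested genes. The biological coefficient of variation common to the genes was 0.610. A count of 0 allows up to 3 counts, between 0.124 and 0.219 CPM, and this covers counting error only.

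The members and lists were chosen with earlier results of these data known. Named in the lists are the 2 highest and 2 lowest log2 fold changes, or all genes of lists of up to 6, and other genes are marked. For markers, the 3 with the most counts of a list and those at 0 counts may be named. Alternatives were DESeq2 1.42.0, voom of limma 3.58.1, RLE, library size and upper quartile scaling, no filter beyond 1 count, at least 10 counts in every library, leaving out each library, another length and a prior count of 0.5 in place of 2.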

Additional observations from a re-analysis of the deposited data

How the results depend on the processing

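No paired analysis was possible because the sample labels of the genotypes share fewer than 2 replicate numbers. The count of genes higher by the criterion, 224 in the main analysis, was 137 under limma-voom and 142 with at least 10 counts in every library, and 141 to 486 without a library. The lower count, 416, was 632 under DESeq2. None of the 9 genes outside Cotl1 passed under any alternative, and 4 to 6 of the listed regulators did. The median log2 fold change of the listed regulators was 0.022, -0.041 under library size scaling, and -0.013 to 0.079 without a library. Cotl1 was under 2-fold without the first Pd1cKO-Tie2 library (0.93) and relative to the endothelial marker sum (0.75), and lay between 1.04 and 1.12 under the other tools, scalings and filters.

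Log2 fold changes turned sign for Pfn1 and Tmsb4x under limma-voom (-0.087 and -0.085) and library size scaling (-0.057 and -0.034). Without a library they ran from -0.37 to 0.33 for Pfn1, -0.41 to 0.38 for Tmsb4x, -0.021 to 0.39 for Tmsb10, -0.032 to 0.17 for Cfl1, -0.026 to 0.27 for Dstn and -1.25 to 0.80 for Cap1. Relative to the endothelial marker sum, a scale chosen after seeing the data, they were -0.29 for Cfl1, -0.24 for Dstn, -0.36 for Pfn1, -0.34 for Tmsb4x, -0.18 for Tmsb10 and -0.21 for Actg1. The cause of these turns was not tested. The log2 ratios between genotypes without a library ran from 1.13 to 1.62 for Cotl1 to Actb, from -0.68 to -0.13 for Cfl1 to Cfl2 and from -0.39 to -0.0034 for Tmsb4x to Tmsb10. The same 5 genes were nearest to Cotl1 with a prior count of 0.5.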
